A study of Mus musculus with 6 samples.

Results

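The general Jmjd2a knockout heart and the wild-type heart that served as its control were compared on 2 single-colour Illumina bead arrays of total RNA, out of the 6 heart arrays of the study. The 2 arrays were chosen by their titles, which name the general knockout and the wild type belonging to it. Of the 19057 genes with a probe, 11194 lay above background on at least 1 of the 2 arrays and were described, each by its brightest probe. The labels call both hearts adult, and the sources used here give neither an age in weeks, a strain, an allele, a sex nor the meaning of general for this pair. The other 4 arrays are a female and a male heart-specific knockout and a wild type for each, also adult, and the driver of that deletion is not given in the sources used here. With 1 array per genotype, every difference between the general hearts is a difference between 2 hearts, with no replicate check and no test. The labels do not say whether an array held RNA of 1 animal or of several.

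Jmjd2a, now named Kdm4a, is a demethylase that removes methyl groups from lysines 9 and 36 of histone H3, the former a mark of silent chromatin and the latter of transcribed gene bodies. It acts with related demethylases of the Kdm4 family that share its catalytic domain. In heart muscle it is known for a part in the hypertrophic response to pressure load, in which genes of the fetal heart, such as the natriuretic peptides, are expressed again.

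The targeted transcript gave no check of the labels. Kdm4a, by its brightest probe, had intensities of 115 (wild type) and 102 (knockout), and all 3 of its probes lay at or below the background level of both arrays (123). Heart muscle was checked with 18 adult sarcomere genes that had a probe. Of these, 17 were above background on both arrays, and Nexn was below it on both (114 and 104.7). Tnnc1, cardiac troponin C, lay at 50962 on both arrays, the highest value of the data, where differences can be hidden. Eif2s3y, a gene of the Y chromosome, had 1116 in the wild-type heart and 1379.7 in the knockout, against 1830.5 and 917 in the male hearts and 97.8 and 104 in the female hearts. Xist, the transcript of the inactive X chromosome, was below background in both general hearts, and its values in the female hearts are not given here. By Eif2s3y, both general hearts had the pattern of the male arrays.

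The arrays had been normalized to nearly the same distribution, with 41.6% of the 45281 probes above background on the wild-type array and 41.4% on the knockout array. The general wild-type array stood apart from the others more often than any other array. Of 13084 genes above background on at least 1 of 6 arrays, 30 (0.229%) lay at least 1 on the log2 scale above all other 5 arrays on the general wild type, and 2 (0.0153%) at least 1 below them. On the general knockout these counts were 1 and 1 (0.00764% each). On the heart-specific arrays 1 gene lay above on each, and below lay 5 in the male wild type (0.0382%), 6 in the male knockout (0.0459%) and 0 or 1 in the females. A gene that differs between the general hearts can thus be compared with 4 other hearts to see which of the 2 lies outside their range, and those 4 values are given beside each main gene. Levels are intensities, with the general wild type before the general knockout, and signed values in parentheses are log2 differences, knockout minus wild type. An intensity compares hearts for the same gene and not genes with each other.

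**Figure D1:**
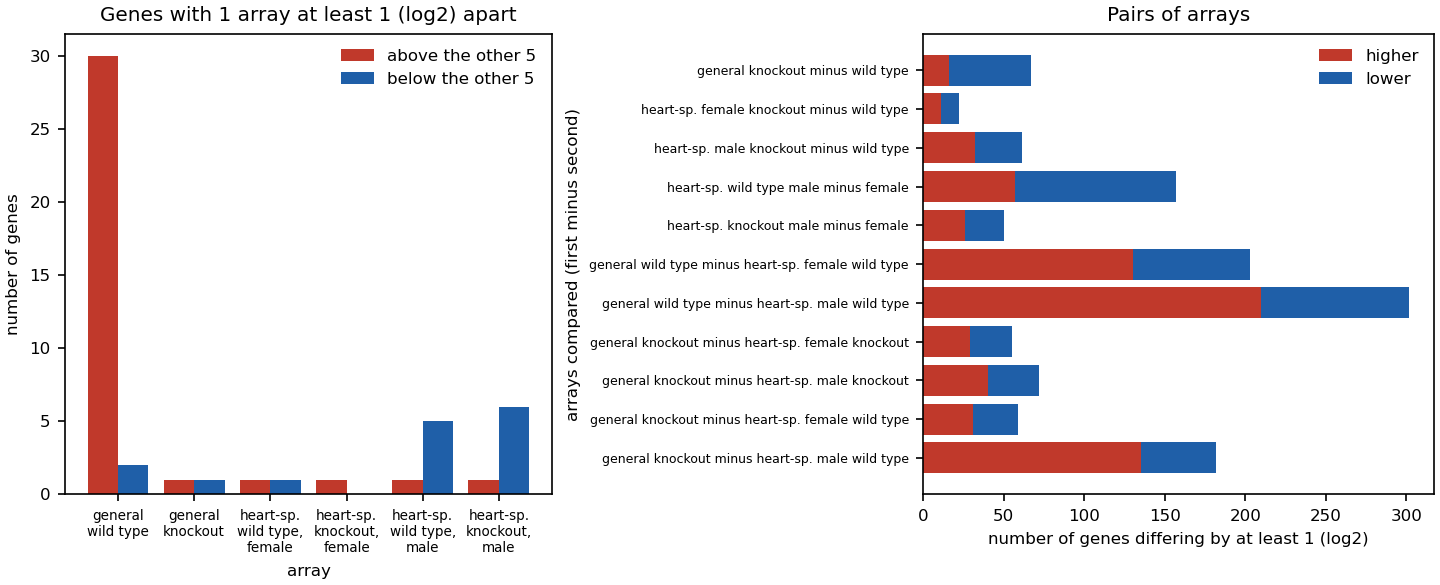
Left, the number of genes (vertical axis) on which each of the 6 arrays lay at least 1 (log2) above or below all other 5, of 13084 genes. Right, the number of genes higher or lower by at least 1 between pairs of arrays (horizontal axis). The general wild type has 30 genes above the other 5 arrays, and no other array more than 1.

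The knockout heart had lower signal than the wild type by at least 1 on the log2 scale for 51 genes (0.456% of 11194) and higher signal for 16 (0.143%), while the median over all genes was a difference of 0.021. The lower side held 9 listed genes of the stressed and fetal heart and 4 of atrial muscle, with Nppa in both lists. It also held 6 of platelets, 2 of red cells and 4 of neutrophils and the acute phase. These lists were chosen with earlier results of these data known. Timp1, an inhibitor of matrix metalloproteinases, had the most negative difference (-3.46), and Gdpd3, a glycerophosphodiester phosphodiesterase, the most positive one (3.37). Of the 51 lower genes, 42 were above background on both arrays, and the others have only a bound, which for Gp1bb (1.71-fold) is short of a difference of 1. In 45 of them the wild type lay above all 4 heart-specific hearts (25.5% of all genes measured), and in 27 the knockout lay inside their range, with 12 above it and 12 below it (23.1% and 20.1% of all genes). The median of the 51 genes was 1.56 above the mean of the 4 heart-specific hearts in the general wild type and -0.0302 from it in the general knockout. For the 16 higher genes these medians were -1.01 and 0.352, and the wild type lay below all 4 hearts in 11 (25.8% of all genes measured). At a lower threshold of 1.5-fold, 135 genes (1.21%) were higher and 224 (2%) lower. The genes were chosen on the same 2 arrays, which favours an extreme position of either, so these counts are a description.

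**Figure D2:**
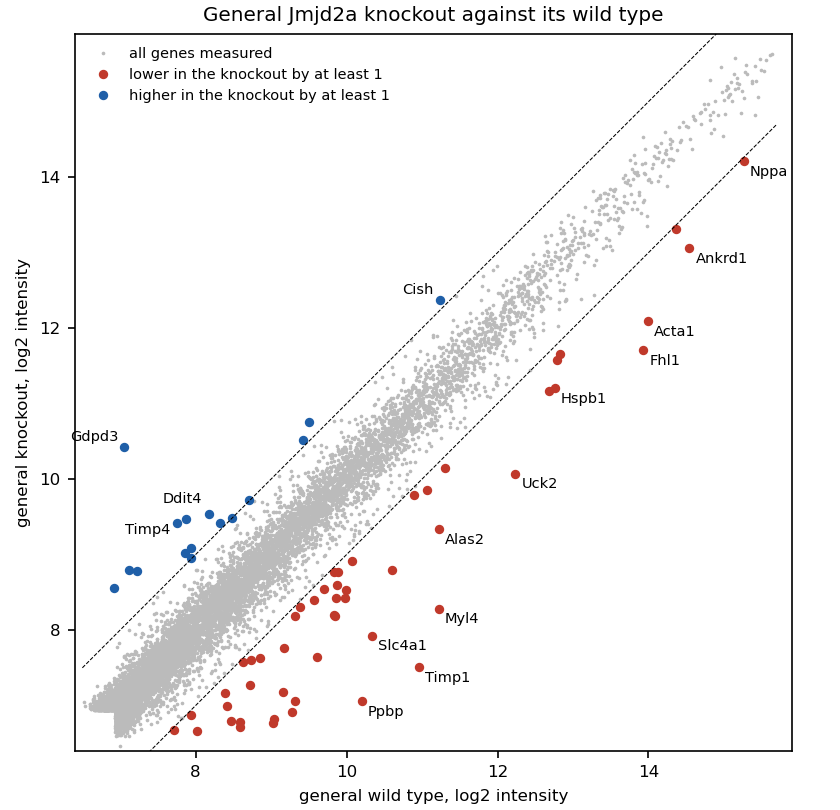
Log2 intensity of each gene measured in the general wild type (horizontal axis) and the general knockout (vertical axis). Dashed lines mark a difference of 1, past which lie 51 genes lower and 16 higher in the knockout.

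The number of genes past 1 was within the range of other pairs of hearts. The female heart-specific knockout and wild type differed by at least 1 in 11 genes in each direction (0.0985% each), and the male pair in 32 higher (0.278%) and 29 lower (0.252%). The 2 heart-specific wild types differed from each other in more genes, with 57 higher (0.5%) and 100 lower (0.878%) in the male. Set against the heart-specific wild types in place of its own control, the general knockout had 31 higher (0.277%) and 28 lower (0.25%) genes than the female, and 135 higher (1.18%) and 47 lower (0.412%) than the male. Against the heart-specific knockouts, the general knockout had 29 higher (0.259%) and 26 lower (0.232%) genes than the female and 40 higher (0.352%) and 32 lower (0.282%) than the male. The general wild type had 130 higher (1.16%) and 73 lower (0.65%) genes than the female and 210 higher (1.83%) and 92 lower (0.803%) than the male.

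Genes of the stressed and fetal heart were mostly lower in the knockout. This list, like the others below, was chosen with earlier results of these data known, so its counts and median are a description only. Of 22 measured, 9 were lower by at least 1 and 0 higher, with a median of -0.778 beside 0.021 for all genes. Fhl1, a LIM-domain protein of the sarcomere that rises in overloaded muscle, had 15637 in the wild-type heart and 3347 in the knockout, and 2920.2 and 2626 in the female and 3548 and 2681 in the male heart-specific wild type and knockout. The wild type was the only high heart, and the knockout lay among the other 4 (difference -2.22). Acta1, skeletal muscle actin and a marker of the fetal program, had 16279 and 4368, and 1398 and 1806 in the female and 4363 and 1639 in the male heart-specific wild type and knockout. The general wild type was again highest, and the knockout lay level with the male wild type at the top of the other hearts (-1.90). Ankrd1, a stretch-responsive ankyrin repeat protein, had 23874 and 8526, and 5375 and 7285 in the female and 8621 and 9458 in the male heart-specific wild type and knockout (-1.49). Its relative Ankrd2 was above background in the wild type alone (386 against 105, at least 3.15-fold) and lay at 101 to 121 in the other 4 hearts, near or below the background level. Nppa, which encodes atrial natriuretic peptide, had 39341 and 18997, and 12345 and 21562 in the female and 17782 and 25410.4 in the male heart-specific wild type and knockout. The knockout lay inside the range of the heart-specific hearts and the wild type above it. Nppb, which encodes B-type natriuretic peptide, had 21067 and 10141 against 4992 to 7434 in the other hearts, so that both general hearts were above all 4. Uck2, a uridine-cytidine kinase of pyrimidine salvage, had 4812 and 1075 against 898 to 1221.

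Further members with lower signal were Flnc, the muscle filamin (6591 and 2305, -1.52), and Ccn2, connective tissue growth factor (7251 and 3242, -1.16). Members of the list that did not reach a difference of 1 were Csrp3, a stretch-sensing Z-disc protein (-0.60), Rcan1, an inhibitor and target of calcineurin (-0.61), and Myh7, the slow myosin chain (348 and 270.2, -0.36). Klhl21, an adaptor of ubiquitin ligases, had 1144 and 637 (-0.84), and 1253 and 619 in the female and 1234 and 625 in the male heart-specific wild type and knockout. Hspb7, a small heat shock protein of heart muscle, had 1098 and 618 (-0.83), and 3947 and 430.3 in the female and 2769.8 and 564 in the male heart-specific wild type and knockout. In these 2 genes each of the 3 knockouts was below its own wild type, with the general knockout level with the other knockouts for Klhl21. Fhl2, a relative of Fhl1, lay on the other side at 0.37, as did the Z-disc protein Pdlim3 at 0.49. Over the list, the general wild type lay above all 4 heart-specific hearts in 16 of 22 genes and the knockout in 3 (25.5% and 23.1% of all genes measured). The list's median in the 2 heart-specific pairs was 0.11 in females and -0.028 in males.

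Promoter sequences are shown for 3 lower genes whose windows held a match to 1 of 2 short motifs of muscle and stress genes: M-CAT, bound by TEAD factors, and the CArG box, bound by serum response factor. They come from RefSeq with the build GRCm38.p6, run 5′ to 3′ on the strand of the gene from 250 bases before its start to 50 after it, and print motif matches in capitals. M-CAT was searched as CATTCC on both strands, so that GGAATG is the same motif on the other strand, and the CArG box by its consensus on both strands. The regions are chrX:20869916-20870215 for Timp1 (plus strand), chr19:36119795-36120094 for Ankrd1 (minus strand) and chr8:123894726-123895025 for Acta1 (minus strand).
Timp1: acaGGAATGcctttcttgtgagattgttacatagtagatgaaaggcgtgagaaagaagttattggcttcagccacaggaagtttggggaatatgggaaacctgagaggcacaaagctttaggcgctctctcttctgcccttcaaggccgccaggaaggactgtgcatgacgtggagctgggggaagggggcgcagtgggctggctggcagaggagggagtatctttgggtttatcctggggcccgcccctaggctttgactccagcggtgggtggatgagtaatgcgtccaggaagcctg
Ankrd1: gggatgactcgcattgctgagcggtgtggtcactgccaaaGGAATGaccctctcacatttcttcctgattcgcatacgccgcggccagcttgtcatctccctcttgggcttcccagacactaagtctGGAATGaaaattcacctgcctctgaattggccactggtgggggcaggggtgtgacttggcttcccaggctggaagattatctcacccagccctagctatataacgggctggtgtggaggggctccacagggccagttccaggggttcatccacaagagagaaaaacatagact
Acta1: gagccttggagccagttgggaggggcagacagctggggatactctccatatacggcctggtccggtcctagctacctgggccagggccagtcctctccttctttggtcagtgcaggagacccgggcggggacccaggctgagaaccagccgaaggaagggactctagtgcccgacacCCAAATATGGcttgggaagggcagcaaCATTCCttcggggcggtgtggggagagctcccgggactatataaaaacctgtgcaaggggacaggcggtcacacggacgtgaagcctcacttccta
The Timp1 window held 1 M-CAT match and the Ankrd1 window 2. In the Acta1 window there was 1 M-CAT match and 1 CArG box, the latter the run that begins with CC. M-CAT was found in 13 of 50 promoters (26.0%) of genes lower by at least 1, in 4 of 17 (23.5%) of genes higher by at least 1, in 12.5% of promoters of all genes measured and in 14.7% of 32851 promoters in all. The CArG box was found in 4 of 50 (8.0%) of the lower genes' promoters, those of Acta1, Fhl1, Myl7 and Ppbp, in 1 of 17 (5.88%) of the higher genes', that of Stbd1, and in 1.63% of all. The window of Timp4, a higher gene, is not printed and held neither motif. A match is a run of letters in the window and not a measured site.

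Some atrial muscle genes were lower too. Of 13 measured atrial markers, 4 were lower by at least 1, among them Nppa, which is also in the stress list, and 0 higher. In total 7 were below 0 and 6 above it, with a median of -0.552 that was -0.0054 without the filter on dim genes. Myl4, the atrial essential light chain, had 2385 in the wild-type heart and 311 in the knockout, and 295 and 1078 in the female and 309.5 and 552 in the male heart-specific wild type and knockout (-2.94). The heart-specific hearts spread widely in this gene, and the general knockout lay with their 2 wild types. Myl7, the atrial regulatory light chain, was above background in the wild type (623) and below it in the knockout (121), at least 5.08-fold, and reached 148 in the female heart-specific knockout. Sln, sarcolipin, which inhibits the calcium pump in atrial muscle, had 384 and 110.4, at least 3.13-fold, and 222 in the female heart-specific knockout. All 3 were highest in the general wild type and next highest in the female heart-specific knockout. A pair of further atrial markers, the secreted Dkk3 (-0.92) and the myosin-binding protein Mybphl (-0.73), lay on the same side. Kcna5, an atrial potassium channel, lay on the other side (178 and 282, 0.66), and the connexin gene Gja5 at 0.36. The summed intensity of the 13 markers was 44855 in the wild-type heart and 21689 in the knockout, against 15389 to 28295 in the other hearts, and most of that sum was Nppa. In bulk tissue, fewer cells of a type and less RNA per cell cannot be told apart, and the part of atrial tissue in the stress gene differences was not tested.

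**Figure D3:**
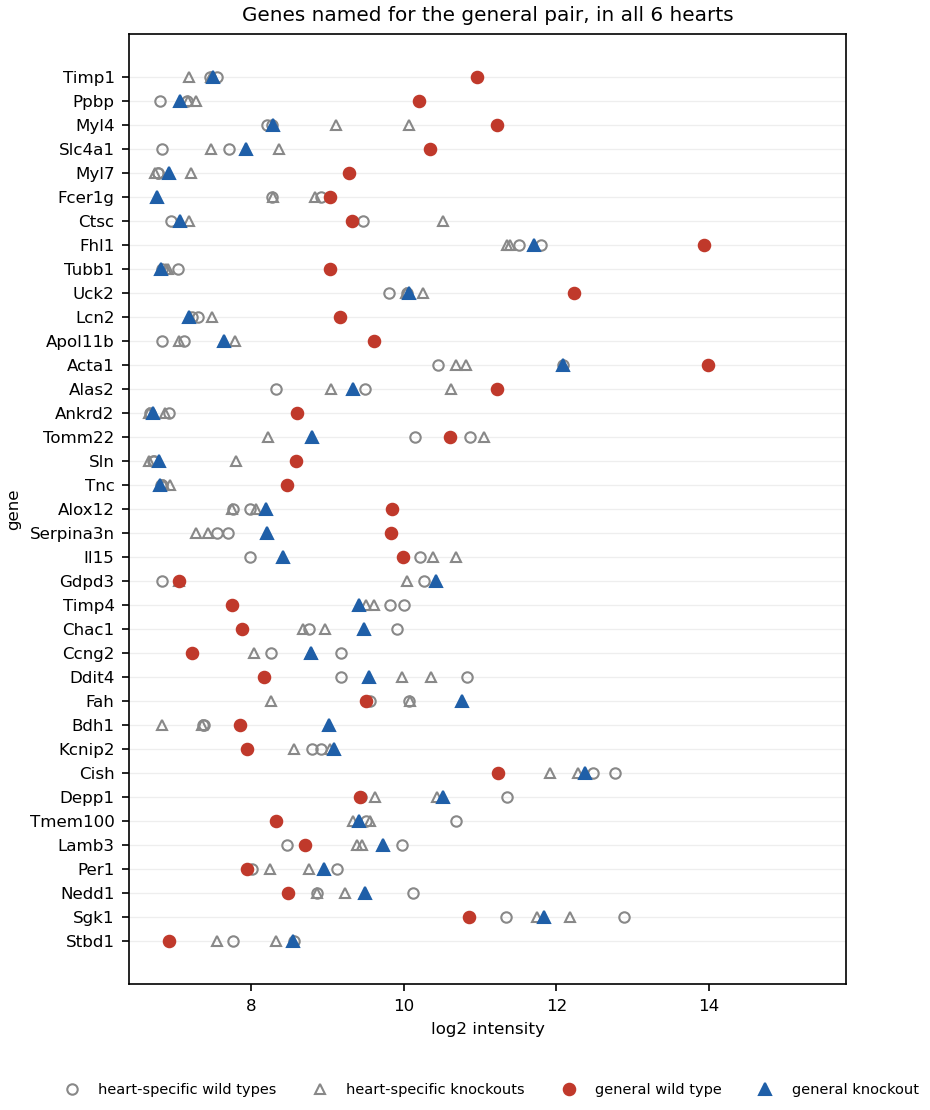
Log2 intensity (horizontal axis) of genes named for the general pair (vertical axis) in all 6 hearts. Filled circles are the general wild type, filled triangles the general knockout, and open symbols the 4 heart-specific hearts; for Timp1, Ppbp, Fhl1 and Uck2 the filled circle lies apart and the other 5 symbols lie together.

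The adult contractile apparatus had no gene past the threshold. Of the 17 sarcomere genes, 0 passed a difference of 1 in either direction, and their median was 0.117. Myh6, the adult myosin heavy chain, had 36105 and 36820.1 (0.03), but its other probe had 9737 and 5989. Tnni3, cardiac troponin I, had 6195 and 4016 (-0.63), and the M-band gene Myom1 7359.8 and 9853 (0.42). Of 26 calcium cycling and ion channel genes, 1 was lower by at least 1 (Sln) and 1 higher. The higher gene, Kcnip2, is a subunit of the channel that carries the transient outward potassium current, and it had 246 in the wild-type heart and 544 in the knockout, against 379 to 525 in the other 4 hearts (1.14). Here the wild type was the heart outside the common range, on the low side, and the knockout was slightly above it. Kcnv2, a modulatory potassium channel subunit (0.93), and Kcnd2, the pore subunit that Kcnip2 assists (0.44), were on the same side without reaching 1. Cacnb2, a calcium channel subunit, had 0.58 by its brightest probe. A second Cacnb2 probe went the other way (470 and 338, -0.48), and dimmer ones differed little (-0.03 and 0.003). The calcium pump Atp2a2 had 35812 and 42292 (0.24), its inhibitor phospholamban (Pln) -0.14 and the release channel Ryr2 -0.03.

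The 4 tissue inhibitors of metalloproteinases did not move together. Timp1 had 1995 in the wild-type heart and 182 in the knockout, and 188 and 145 in the female and 176 and 178 in the male heart-specific wild type and knockout. The wild type alone was high, and 5 hearts lay together. A second Timp1 probe, with 1615 and 195, had a difference of -3.05. Timp4 had 215 and 683, and 904 and 728 in the female and 1024 and 778 in the male heart-specific wild type and knockout (1.67). For this gene the wild type alone was low, although the knockout was also below the other 4 hearts. Timp2 (0.27) and Timp3 (0.31) were higher in the knockout by less than 1. Among 28 measured inhibitors and proteases, 2 were lower by at least 1, 1 was higher, and the median was -0.0301. Ctsc, a lysosomal protease, was the other lower member (637 and 134, -2.25), but it ranged from 123 to 1468 in the heart-specific hearts, with 704 and 1468 in the males. The metalloproteinases Mmp3 (-0.91) and Mmp14 (-0.83) were lower by less than 1, and Mmp2 lay at 0.19.

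Matrix genes were lower in part. Col3a1, fibrillar collagen of stretchable tissue, had 946 and 437 (-1.11), and Col8a1, a short-chain collagen, 909 and 438 (-1.05). These were the 2 of 15 collagens past 1, and the median was -0.119. A second, dimmer Col3a1 probe showed little difference (163 and 158, -0.04). Both general hearts were low in the collagen list. The knockout lay below all 4 heart-specific hearts in 12 of 15 collagens and the wild type in 9 (20.1% and 25.8% of all genes measured). Of 30 matrix glycoproteins and growth factor genes, 2 were lower by at least 1 and 0 higher (median -0.0982). Tnc, tenascin C of remodelling matrix, was above background in the wild type alone (354 against 111, at least 2.88-fold), and lay at 113 to 122 in the other hearts, at or near background. Fn1 (-0.08), Sparc (-0.15) and Tgfb1 (0.21) differed less. Fibroblast markers as a list had a median of -0.0892, and of 19 measured 1 was past 1, Col3a1. Pdgfra, a receptor that marks fibroblasts, had 695 and 712, and their summed intensity was 29179 in the wild-type heart and 29156 in the knockout, against 28207 to 36638.

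Platelet genes had lower signal in the knockout, led by Ppbp, Tubb1, Alox12 and Gp9. Of 19 measured members 8 were above background on both arrays, 10 on the wild-type array alone and 1 on the knockout array alone. The 10 entered through the array on which they were high, so the counts over the list (18 below 0, 6 lower by at least 1, 0 higher, median -0.722) are a description only. Ppbp, the precursor of platelet chemokines, had 1176 in the wild-type heart and 134 in the knockout, and 112 and 145 in the female and 143 and 155 in the male heart-specific wild type and knockout (-3.14). The wild type was high and the other 5 lay close to background. Tubb1, the beta tubulin of platelets, was above background in the wild type (526) and below it in the knockout (113), at least 4.29-fold. Alox12, platelet lipoxygenase, had 920.4 and 292 against 216 to 268 in the other hearts (-1.66), and Gp9, part of the von Willebrand factor receptor, 334 and 143 against 119 to 129 (-1.22). Gp1bb of the same receptor and Treml1 of platelet granules were below background in the knockout, and were lower by at least 1.71-fold and 2.005-fold. Gp1bb is thus counted among the 6 by its measured values (209.5 and 102), while its bound does not reach a difference of 1. Pf4, platelet factor 4, had 1913 and 963, just short of 1 (-0.99), and Itga2b, the platelet integrin, 198 and 120.1 (-0.72). Plek, a protein kinase C substrate of platelets and white cells, had 304 and 157 against 138 to 149.9 (-0.95). The summed intensity was 8490 in the wild-type heart and 4249 in the knockout, against 3523 to 4583 in the other hearts.

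Red cell genes lay on the lower side except for some globin probes. Slc4a1, the anion exchanger of the red cell membrane, had 1296 and 243, and 114 and 178 in the female and 209 and 328 in the male heart-specific wild type and knockout (-2.41). Alas2, the rate-limiting enzyme of heme synthesis in red cell precursors, had 2390.2 and 648, and 321 and 528 in the female and 721 and 1569 in the male heart-specific wild type and knockout (-1.88). In both genes the general knockout lay inside the range of the other hearts and the wild type above it. The globin probes went both ways. Hba-a1 had 31905 and 44903 (0.49), while Hbb-bs lay at -0.40. Of the 4 probes of Hbb-bt, a beta globin, the brightest over the 6 arrays had 28872 and 40165 (0.48), and the other 3 were lower in the knockout. Those had 8933 and 918 (-3.28), 43137 and 15364 (-1.49), and 41956 and 30982 (-0.44). In the other hearts the first of these 3 ranged from 229.7 in the female wild type to 4121 in the male knockout. Globin values are near the top of the scale and the genes are near-identical copies, so it is uncertain which transcript each probe reads. Of 11 measured red cell genes 2 were lower by at least 1 and 0 higher (median -0.289). Other members of the list, among them Gata1, Klf1 and Hemgn, were below background in both general hearts. Their summed intensity by 1 probe per gene, nearly all globin, was 113948 in the wild-type heart and 123810 in the knockout, against 94938 to 133576.

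Of 14 neutrophil and acute-phase genes, 4 were lower by at least 1 and 0 higher (median -0.337). Lcn2, a siderophore-binding lipocalin of neutrophils and inflamed tissue, had 573 and 145, and 158 and 147 in the female and 149.7 and 179.5 in the male heart-specific wild type and knockout (-1.98). Serpina3n, an acute-phase protease inhibitor, had 914 and 294 against 154 to 207 (-1.64). S100a9 and S100a8, the subunits of calprotectin, had 420.5 and 154 (-1.45) and 762 and 337 (-1.18). In the last 3 genes both general hearts lay above all 4 other hearts, with the wild type higher still, though the knockout only narrowly so for S100a9. Mpo and Elane, granule proteins that define neutrophil precursors, were below background in both general hearts, as was Mmp8, the neutrophil collagenase (97.7 and 112), and the gelatinase gene Mmp9 had 129.5 and 118. Of the 14 genes, 6 were above background on both arrays, 5 on the wild-type array alone and 3 on the knockout array alone. The summed intensity was 4011 in the wild-type heart and 2153 in the knockout, against 1741 to 1953.

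Macrophage genes had a median of -0.168, with 2 of 34 lower by at least 1 and 0 higher. Fcer1g, the common gamma chain of Fc receptors, differed from the pattern above, because the knockout was the heart that stood apart. It had 521 in the wild-type heart and 109, below background, in the knockout (at least 4.25-fold), and 310.1 and 313 in the female and 484 and 459 in the male heart-specific wild type and knockout. Lgals3, galectin 3 of activated macrophages, had 927 and 342 against 174 to 279.7 (-1.44). The chemokine genes Ccl7 (699 and 381, -0.87) and Ccl2 (233 and 147, -0.67) were above the other hearts in both general hearts. Defining macrophage markers differed less, with Csf1r at 0.07, Adgre1 at -0.05 and the complement gene C1qa at -0.34. The summed intensity was 26263 in the wild-type heart and 22708 in the knockout, against 21178 to 28787. Of 9 lymphocyte, mast cell and dendritic cell markers 0 passed 1 (median -0.14), and T cell Cd3e was above background in the wild type alone, barely (124).

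Interferon-stimulated genes had a median of 0.08 with 0 of 27 past 1. Their largest difference was that of Ifi27l2a (3039 and 1655, -0.88), and the kinase gene Eif2ak2 (0.49) and the ubiquitin-like modifier Isg15 (0.38) lay on the other side. Antigen presentation genes had a median of -0.0136 with 0 of 14 past 1, from H2-T23 at -0.39 to H2-Ab1 at 0.47.

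**Figure D4:**
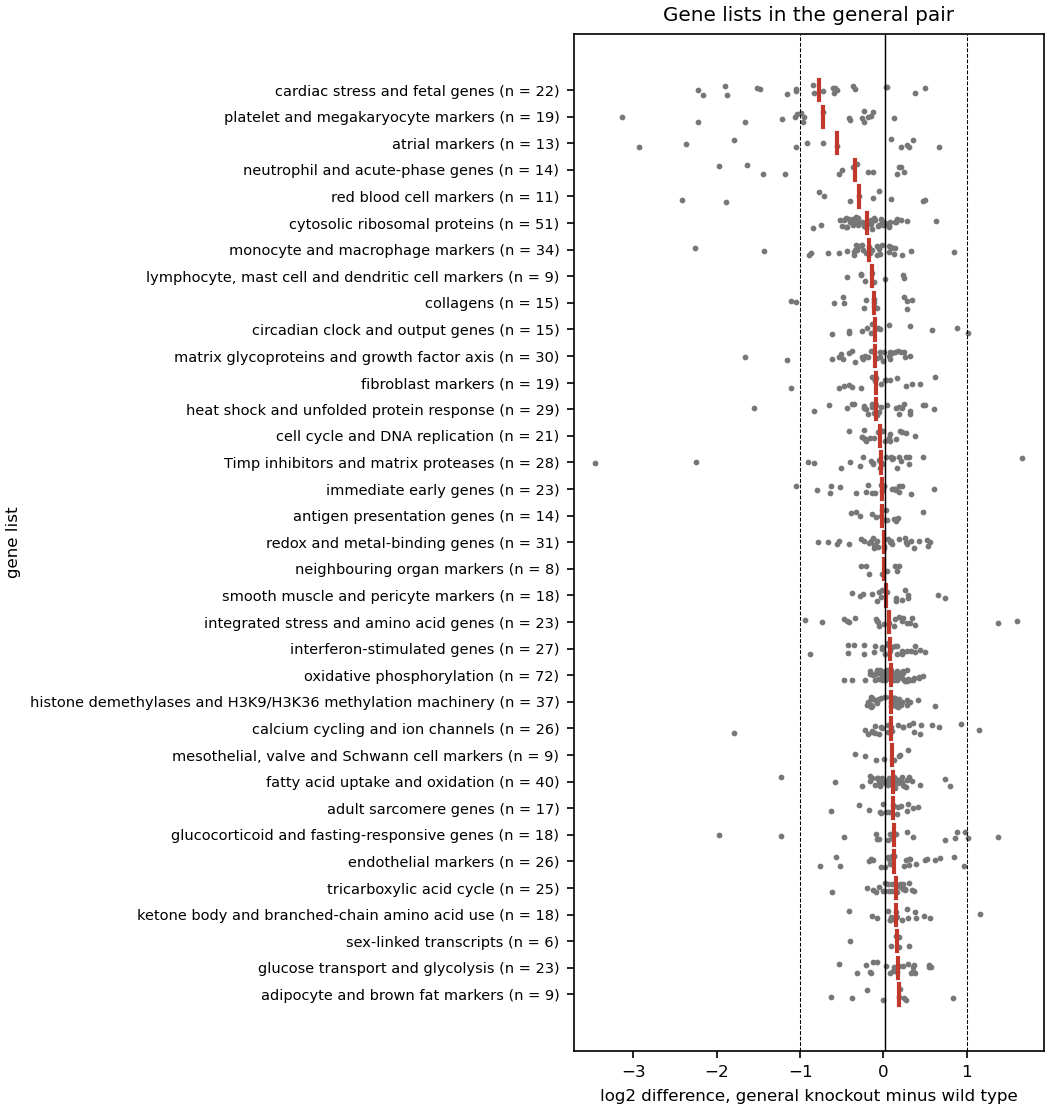
Log2 difference (knockout minus wild type, horizontal axis) of every measured member (grey points) of each gene list (vertical axis, with the number measured), with the list median as a red bar. The solid line is the median of all genes (0.021) and dashed lines mark a difference of 1; the medians of stress genes (-0.778), platelet markers (-0.722) and atrial markers (-0.552) are lowest, and members measured on 1 array alone are included.

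Endothelial genes had a median of 0.13 beside 0.021 for all genes, with 0 of 26 past 1. Aqp1, the water channel of heart capillaries, had 2807 in the wild-type heart and 5497 in the knockout, and 8621 and 8869.5 in the female and 10945 and 8869.5 in the male heart-specific wild type and knockout (0.97). Both general hearts were thus below the other 4, the wild type more so. Ly6c1 (1753 and 3164, 0.85) and Car4, a capillary carbonic anhydrase (329.5 and 528, 0.68), lay on the same side, and Plvap, of fenestrated endothelium, on the other (-0.76). The junction gene Cdh5 had 0.08 and Pecam1 0.25. The summed intensity was 25945 in the wild-type heart and 32686 in the knockout, against 37375 to 41856. In 14 of 26 genes the wild type lay below all 4 heart-specific hearts (25.8% of all genes measured).

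Smooth muscle and pericyte markers had a median of 0.0312 with 0 of 18 past 1. Acta2, smooth muscle actin, had 12110.4 and 11849.8, and the largest differences were those of Higd1b (0.74) and Smtn (0.66). Adipocyte markers had a median of 0.185 (0 of 9 past 1), with adiponectin (Adipoq) at 176 and 135. Mesothelial, valve and Schwann cell markers had a median of 0.108 (0 of 9) and markers of neighbouring organs one of 0.0113 (0 of 8). Surfactant protein C of lung (Sftpc) lay at 113 and 124, at background, and liver albumin (Alb) was below background in both hearts.

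Genes of energy metabolism had medians slightly above that of all genes across several lists, by amounts far under 1. The medians were 0.109 for 40 fatty acid genes, 0.169 for 23 genes of glucose transport and glycolysis, 0.147 for 25 of the tricarboxylic acid cycle, 0.156 for 18 of ketone body and branched-chain amino acid use, and 0.092 for 72 of oxidative phosphorylation. Bdh1, which interconverts the ketone bodies, was past 1, with 232 in the wild-type heart and 519.9 in the knockout, and 165 and 163 in the female and 167 and 113 in the male heart-specific wild type and knockout (1.16). Both general hearts were above the other 4. Angptl4, an inhibitor of lipoprotein lipase that fasting induces, was the 1 fatty acid list member lower by at least 1 (464 and 199 against 207 to 419, -1.22). Ppargc1a, a coactivator of mitochondrial genes, had 421 and 729.5 (0.79), and Pdk4, a kinase that limits glucose oxidation, 2266 and 3779.6 (0.74). For Ppargc1a the wild type lay below the other hearts (634 to 1166) and the knockout inside their range. Cpt1b, the gate of fatty acid entry into mitochondria, had -0.02, and Acadm, a chain-shortening dehydrogenase, 0.17. Pfkm, the muscle phosphofructokinase, had 9853 and 14365 (0.54) and glycogen phosphorylase Pygm 0.54, whereas hexokinase Hk1 was at -0.53. In oxidative phosphorylation the differences ran from Ndufb10 of complex I (-0.48) to Ndufa2 of the same complex (0.47). In the heart-specific pairs the glycolysis median was -0.0161 in females and -0.2 in males, and that of ketone and branched-chain genes 0.0365 and -0.364.

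Cytosolic ribosomal protein genes had a median of -0.203 beside 0.021 for all genes, with 0 of 51 past 1. Rpl3 had 9939 and 5532 (-0.85) and Rps6 4085 and 2435 (-0.75), and Rpl30 lay on the other side (0.63). The wild type lay above all 4 heart-specific hearts in 33 of 51 genes and the knockout in 21 (25.5% and 23.1% of all genes measured). These genes exist in many near-identical copies, and their probes are uncertain for that reason.

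Stress signalling genes held some of the higher genes. Of 23 genes of the integrated stress response and amino acid supply, 2 were higher by at least 1 and 0 lower (median 0.0668). Chac1, which breaks down glutathione, had 235 in the wild-type heart and 713 in the knockout, and 958 and 501 in the female and 431 and 409.9 in the male heart-specific wild type and knockout (1.60). Ddit4, an inhibitor of mTORC1, had 289 and 746, and 1817 and 1311 in the female and 576 and 1006 in the male heart-specific wild type and knockout (1.37). In both genes the wild type was the lowest of the 6 hearts and the knockout lay inside the range of the others. The pathway's transcription factor Atf4 (-0.35) and the serine synthesis enzyme Psat1 (333 and 173, -0.95) lay on the lower side. Among 29 heat shock and unfolded protein response genes, Hspb1, a small heat shock protein, was the 1 past 1, with 6931 and 2354, and 1572 and 1792 in the female and 1627 and 1949.9 in the male heart-specific wild type and knockout (-1.56). Hsp90aa1 (-0.65) lay on the same side, Bag3, a co-chaperone of the Z-disc, on the other (0.50), and the list median was -0.0867.

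Of 31 redox and metal-binding genes 0 passed 1 (median 0.0102), with the transferrin receptor Tfrc (-0.78) and ferritin light chain Ftl1 (-0.67) lowest and the iron exporter Slc40a1 highest (0.56). Among 23 immediate early genes, Socs3, a feedback inhibitor of cytokine signalling, was the 1 lower by at least 1 (395 and 191 against 202 to 244, -1.05), and the list median was -0.0222. Egr1 (-0.80) and Fos (-0.64) were on the same side and Klf2, an endothelial flow-responsive factor, on the other (0.60).

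Of 18 genes that respond to glucocorticoids or fasting, 2 were higher by at least 1 (Ddit4 and Per1) and 2 lower (Lcn2 and Angptl4), with a median of 0.126. Per1, a clock gene induced by glucocorticoids, had 246 and 495, and 556 and 432 in the female and 258 and 304 in the male heart-specific wild type and knockout (1.01). Sgk1, a serum and glucocorticoid-regulated kinase, had 1856 and 3673, just short of 1 (0.98), with 2603 to 7578 in the other hearts. Tsc22d3, a glucocorticoid-induced leucine zipper protein, had 1414 and 2606 (0.88), Cebpb 971 and 1756 (0.85), and Fkbp5, a chaperone of the receptor, 174 and 164 (-0.08). The wild type had the lower value in the first 4 genes of this group and was the lowest of the 6 hearts in each. The circadian list had a median of -0.102, with Per1 the 1 of 15 past 1. Per2 lay on the same side as Per1 (349 and 521, 0.58). Nr1d2, a repressor of the clock, had -0.62, Dbp, a clock output factor, -0.41 and Arntl, the core activator, -0.26. Of the 15 genes, 5 were above 0 and 10 below it.

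Chromatin genes related to the target did not pass 1. Of 37 measured histone demethylases and genes of the machinery for methyl marks on lysines 9 and 36 of histone H3, 0 passed 1, and the median was 0.0943. Kdm4b had 668 and 779 (0.22) and Kdm4c 191 and 181 (-0.08), and Kdm4d was below background in both hearts. The methyltransferase Nsd3 had the largest difference (272 and 416, 0.61), inside the range of the other hearts for the knockout. The muscle methyltransferase Smyd1 had -0.19 and serum response factor (Srf) -0.10. Cell cycle genes had a median of -0.0468 with 0 of 21 past 1, from Pcna (-0.41) to Ccnd1 (0.38). The chromosome of Kdm4a, chromosome 4, held 3 of the 67 genes past 1 and 6.07% of the genes measured.

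**Figure D5:**
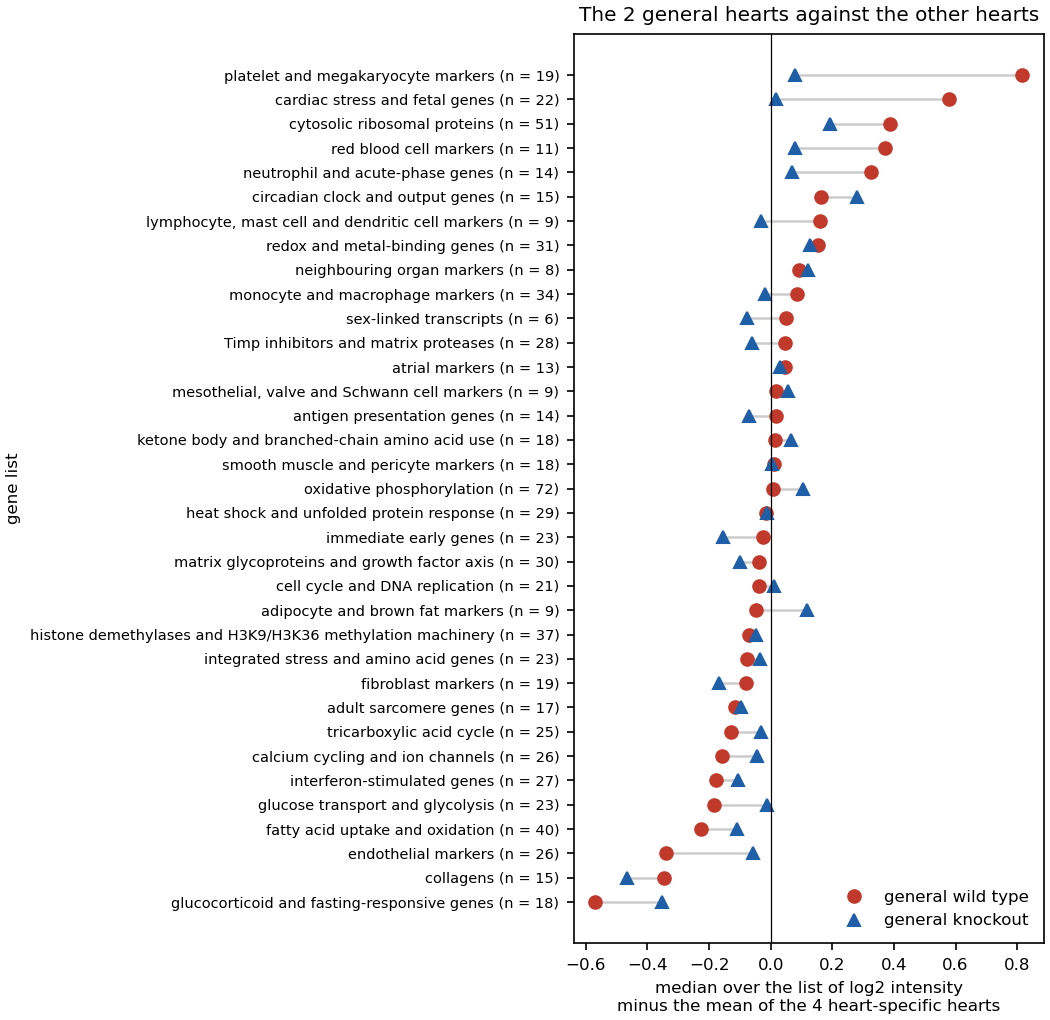
For each gene list (vertical axis, with the number measured), the median over members of log2 intensity in the general wild type (circles) and the general knockout (triangles) minus the mean of the 4 heart-specific hearts (horizontal axis). Platelet markers lie at 0.817 in the wild-type heart and 0.0793 in the knockout, stress genes at 0.578 and 0.0162, and glucocorticoid and fasting genes at -0.569 and -0.353. Members above background on 1 general array alone are included. For 10 of 19 platelet markers that array was the wild type, which favours a high wild-type median. The lists were chosen with earlier results of these data known.

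Other genes past 1 belonged to none of these lists. Apol11b, of the apolipoprotein L family, had 784 and 199.9, and 113 and 133 in the female and 139 and 221 in the male heart-specific wild type and knockout (-1.97). Il15, a cytokine that sustains natural killer cells, had 1013 and 342, and 253 and 1338 in the female and 1187 and 1650.3 in the male heart-specific wild type and knockout (-1.56). Tomm22, an import receptor of the mitochondrial outer membrane, had 1553 and 445, and 1870.2 and 2130 in the female and 1129 and 298 in the male heart-specific wild type and knockout (-1.80). For Il15 and Tomm22 both general hearts lay inside the wide range of the other hearts, and a second Tomm22 probe, dim with 132 and 140, did not show the difference. Genes named after their values were seen were Nrap, of the intercalated disc and forming myofibrils (7102 and 3047, -1.22), Synpo2l of the Z-disc (1014 and 369, -1.46), the platelet receptor Mpig6b (259 and 102), the injury-induced receptor Tnfrsf12a (1081 and 483, -1.16) and the chemokine gene Ccl12 (668 and 315, -1.08).

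On the higher side, Gdpd3 had 133 in the wild-type heart and 1378 in the knockout, and 1232 and 1051 in the female and 114 and 133 in the male heart-specific wild type and knockout. The 6 hearts thus fell into 3 high and 3 low ones without regard to genotype, with the general knockout among the high. Fah, the last enzyme of tyrosine breakdown, had 727 and 1731, and 1076 and 1083 in the female and 752 and 306 in the male heart-specific wild type and knockout (1.25). Ccng2, a cyclin of arrested cells, had 149 and 441 against 263 to 577 (1.56), and Stbd1, a glycogen-binding protein, was above background in the knockout alone (121 and 375, at least 3.06-fold) against 187 to 379. Cish, a feedback inhibitor of cytokine signalling, had 2408 and 5309 against 3873 to 6957 (1.14). In these 3 genes the wild type was the lowest heart. Depp1, a target of FOXO factors (1.09), the endothelial membrane protein Tmem100 (1.09), the laminin chain Lamb3 (1.02) and the centrosomal Nedd1 (359 and 718) were the remaining named genes. Near the threshold, Nppa (-1.05) lay just inside it on the lower side and Pf4 (-0.99) just outside, and Per1 (1.01) and Nedd1 inside and Sgk1 (0.98) outside on the higher side. Among the 67 genes past 1, 24 had another probe above background, and of their 31 further probes 26 pointed the same way, 11 of them by at least 1, and 5 the opposite way.

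Whether the general pair differed from the heart-specific pairs in its knockout effect was tested with limma over all 6 arrays, with the pair as a block, a knockout term for each line and Benjamini-Hochberg adjustment over 11261 genes. The spread came from the 2 heart-specific pairs, with 1 residual degree of freedom, and the general pair was assumed to vary as they do. Limma drew each gene's spread toward a value shared by all genes, with 5.79 prior degrees of freedom. By this test the knockout effect was lower in the general line for 9 genes (0.0799%) and higher for 2 (0.0178%), at an adjusted p under 0.05. In all, 728 genes had an unadjusted p under 0.05. Ppbp differed by -3.38 ± 0.235 (SE; limma adjusted p = 0.016), from -3.14 in the general pair and 0.37 and 0.12 in the female and male pairs. Timp1 differed by -3.28 ± 0.257 (limma adjusted p = 0.016), its female and male pairs having -0.38 and 0.02. Slc4a1 differed by -3.07 ± 0.221 (limma adjusted p = 0.016) and Alas2 by -2.80 ± 0.258 (limma adjusted p = 0.0347), both of them higher in the 2 heart-specific knockouts than in their wild types. Myl4, with opposite directions in the lines too, differed by -4.29 ± 0.409 (limma adjusted p = 0.0361). Fcer1g, Myl7, Tubb1 and Apol11b were the other genes with a lower knockout effect in the general line. Their differences were -2.23, -2.56, -2.18 and -2.42, with limma adjusted p from 0.0416 to 0.049. Fcer1g, Myl7 and Tubb1 were below background in the general knockout, so the sizes of their differences are not exact. Gdpd3 (3.38 ± 0.267, limma adjusted p = 0.016) and Timp4 (2.02 ± 0.222, limma adjusted p = 0.049) had a higher knockout effect in the general line. The calls rest on a small spread between 2 pairs. Ppbp, Tubb1 and Myl7 lay near or below background in the heart-specific hearts, so their spread there is that of values near background. Tubb1 and Myl7 were above background on only 2 of 6 arrays, including the general wild type. Without the pair block limma called 0 genes, with 449 at an unadjusted p under 0.05. Among the 8560 genes above background on all 6 arrays it also called 0, with 553. A test of 1 general pair compares these 2 hearts with the others, and the line and the individual hearts cannot be told apart.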

How the data were processed

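Total RNA of 6 adult mouse hearts was measured on Illumina bead arrays. The deposited values are probe intensities from GenomeStudio, per the submitters' processing notes, whose version is not given in the sources used here. Sorted values differ by at most 2.32% between arrays and run from 82.48 to 50962.29, so they were taken as already normalized between arrays without background subtraction. The deposited intensities were put on the log2 scale with no further correction. Another 12 columns of per-sample values match no sample and were not used.

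Of 45281 probes, 34885 had 1 gene in the platform annotation, 18 several and 10378 none, and 34807 were matched to current symbols by gene ID. RefSeq GRCm38.p6 served for names and promoters only, since no genome build is given. A gene was represented by the probe with the highest mean log2 intensity over 6 arrays. Background was the 95th percentile on each array of 1528 probes of olfactory, vomeronasal and trace amine receptors. Genes above it on at least 1 general array were described. Those above it on at least 2 of 6 arrays entered the limma test (R 4.3.3, limma 3.58.1, pair as a block, 1 residual degree of freedom). The test was also run on simulated data in which all 6 arrays had the same spread for a gene. The assumption that the general pair varies as the others do was therefore not checked. A gene below background on 1 array has a bound, written as at least N-fold: the brighter array over the dimmer one's background level. The pairs come from the labels, which name a wild type for each knockout and the sex of the heart-specific pairs. The labels do not say that arrays hold separate animals, so the spread behind the p-values is that between arrays and may be technical, and their number limits the precision.

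Genes named were the largest 15 differences in each direction above background on both arrays, the largest 6 above it on 1, the genes past the limma test, and in each list up to 6 members with the largest difference plus those that define its role. Predicted models and clone names were counted and not named. Members and lists were chosen with earlier results of these data known. Alternatives were the choice of probe, normexp correction, repeated normalization, centring, the background level, the filter on dim genes, the threshold and the limma design.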

Additional observations from a re-analysis of the deposited data

Results flagged for a closer look

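For 11 genes the knockout effect in the general pair differed from that in the heart-specific pairs by limma's test of the difference itself, with Benjamini-Hochberg adjustment over 11261 genes (log2, general minus heart-specific; differences in the general, female and male pair follow each value). The platelet gene Ppbp had -3.38 (-3.14, 0.37 and 0.12) and Tubb1 -2.18 (-2.22, 0.05 and -0.13). The red cell genes Slc4a1 and Alas2 had -3.07 (-2.41, 0.65 and 0.65) and -2.80 (-1.88, 0.72 and 1.12). The atrial light chains Myl4 and Myl7 had -4.29 (-2.94, 1.87 and 0.83) and -2.56 (-2.37, 0.43 and -0.04). Timp1 had -3.28 (-3.46, -0.38 and 0.02), Apol11b -2.42 (-1.97, 0.23 and 0.67) and Fcer1g -2.23 (-2.26, 0.01 and -0.08). Gdpd3 had 3.38 (3.37, -0.23 and 0.22) and Timp4 2.02 (1.67, -0.31 and -0.40). For each of these genes except Gdpd3, the general wild type was the highest or lowest of the 6 hearts, and for Fcer1g the general knockout was also the lowest. The general arm of this test is 1 array per genotype, and its spread, with 1 residual degree of freedom, comes from the heart-specific pairs alone. Each gene's spread was drawn toward a value shared by all genes (5.79 prior degrees of freedom). Limma called 0 genes without the pair block (449 at an unadjusted p under 0.05) and 0 among the 8560 genes above background on all 6 arrays (553). Tubb1, Myl7 and Fcer1g were below background in the general knockout, where the general difference has only a bound (at least 4.29-fold, 5.08-fold and 4.25-fold). Ppbp, Tubb1 and Myl7 were near or below background in the heart-specific hearts.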

How the results depend on the processing

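The general pair had 16 genes higher and 51 lower by at least 1, and 13 to 16 higher and 42 to 71 lower under most settings. A normexp correction of the background gave 76 higher and 157 lower at offset 16, and 25 higher at offset 50. A threshold of 1.5-fold gave 135 higher and 224 lower, and counting each probe on its own gave 92 lower. Without a filter on dim genes medians were -0.0054 for atrial, -0.42 for platelet, -0.055 for red cell, -0.068 for neutrophil, 0.020 for adipocyte and -0.022 for mesothelial genes. Restricted to genes above background on both arrays, they were -0.23 for atrial, -0.97 for platelet, -1.31 for neutrophil and 0.016 for lymphocyte genes. With the 99th percentile as background they were 0.091 for Timps and proteases, -0.97 for platelet, -0.54 for neutrophil and -0.17 for neighbouring organ genes. Offset 16 gave -0.92 for stress, -0.84 for atrial, -1.05 for platelet, -0.87 for neutrophil and -0.34 for lymphocyte genes, and offset 50 gave -0.68 for atrial, -0.98 for platelet and -0.50 for neutrophil genes. The mean of a gene's probes gave -0.35 for atrial, -0.51 for platelet and -0.48 for red cell genes, and the brightest probe over the general arrays -0.44 for red cell genes. The general wild type lay at least 1 above the other 5 arrays for 49 genes and below them for 10 at offset 16 (knockout below for 5), and below for 4 at offset 50. Of 364 recomputed differences of the 52 named genes past 1, all 364 kept their direction and 355 stayed past 1. The number of genes that limma called between the lines was 40 at offset 50, 7 after quantile normalization again, 4 after median centring, 4 with the 99th percentile, 0 of 8560 above background on all 6 arrays (553 at an unadjusted p under 0.05), 21 without a filter and 27 with trend and robust. With the pair number as a replicate block limma called 11 genes, and without the pair block 0. Leaving out a heart-specific pair leaves no residual degree of freedom, so values without a test remain, from -3.26 to -3.51 for Ppbp, -3.08 to -3.48 for Timp1, -3.77 to -4.81 for Myl4 and 3.15 to 3.60 for Gdpd3. The causes of these shifts were not tested. Of the platelet and neutrophil genes measured, 8 of 19 and 6 of 14 were above background on both arrays, which limits those medians.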

Other observations

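Some genes separated both general hearts from the 4 heart-specific hearts, whatever the genotype. Dbp, an output factor of the circadian clock, had 4284 (wild type) and 3213 (knockout) in the general pair, against 546 to 1452 in the others. Arntl, the core activator that cycles against it, had 202 and 169 against 306 to 609, and Tef and Nr1d1 lay with Dbp (526 and 490.2 against 245 to 361, 250.3 and 239.5 against 144 to 193). The hour of dissection is not given in the sources used here. Some glucocorticoid-responsive genes were low in both general hearts. Zbtb16 had 126 and 153 against 284 to 338, Klf9 3941 and 5052 against 5802 to 7314, and Cdkn1a 508 and 366 against 831 to 1568. The wild type lay below all 4 heart-specific hearts in 13 of 18 glucocorticoid or fasting genes and the knockout in 11 (25.8% and 20.1% of all genes measured). Other members differed. Per1, Sgk1 and Ddit4 lay inside the range of the heart-specific hearts in the knockout. Lcn2 and Angptl4 lay above all 4 in the wild type.

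On chromosome 5, Scarb2 (404 and 752), Stbd1 (121 and 375) and Ccng2 (149 and 441) were higher in the general knockout, while Shroom3 (-0.08), Septin11 (0.05) and Ccni (-0.02), which lie in the same stretch, had differences near 0. These 6 genes were chosen after their values were seen.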
